A study of Mus musculus with 15 samples.

Results

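Complex I of the respiratory chain was read allele by allele in cortical organoids grown from hybrid mouse cells. Its genes were taken as the autosomal rows whose symbol is Nduf followed by a, b, c, s, v, ab or af and a number. This gave 42 of 44260 genes in the table, 35 subunits and 7 assembly factors (the Ndufaf genes). The naming pattern also fits Ndufa1 and Ndufb11 on the X chromosome, which were kept out. Both were listed at 0 from Spret in all 3 libraries, while B6 gave 45, 38 and 58 for Ndufa1 and 157, 85 and 95 for Ndufb11, so these values compare no pair of alleles. Ndufb1-ps, whose symbol lies outside the pattern, stood at 60, 59 and 60 from B6 and 68, 50 and 60 from Spret. Ndufaf4 and the complex I genes of mitochondrial DNA were not analysed here.

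The organoids were made from epiblast stem cells of SpretB6 lines, whose cells hold a C57BL/6J (B6) genome copy and a copy from the wild-derived Mus spretus (Spret). The tissue label names the stem cells, and the table is named for organoids of day 12. There were 3 libraries, titled C1 to C3, each with a B6 and a Spret value per gene, and the labels name no agent and no altered allele. Nothing says that they were separate cultures, so the spread between these 3 libraries may be technical. The spread behind each p-value is drawn in part from other genes of similar level. The other 12 samples, induced pluripotent stem cells of 4 crosses with 3 clones each, were not analysed here. No library of a reverse cross was used, so strain and parent of origin cannot be told apart in any value below.

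Complex I, the NADH:ubiquinone oxidoreductase, sits in the inner mitochondrial membrane. It passes electrons from NADH to ubiquinone and pumps protons, which feeds the ATP synthase. Its hydrophilic arm in the matrix holds the flavin and the iron-sulfur clusters, and its membrane arm holds the proton channels. A small set of catalytic core subunits is shared with bacteria, and the many supernumerary subunits around it are needed for assembly and stability. Assembly factors build the complex and are not part of the finished enzyme. Neurons depend strongly on this enzyme, and its loss in people causes encephalopathies such as Leigh syndrome.

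Values are normalized read numbers as the authors deposited them, whole numbers with no unit of length, so levels are compared between alleles of a gene and not between genes. Column sums ran from 2413876 to 3027078 for B6 and from 2088788 to 2639912 for Spret. The 7 cortical neuron markers summed to between 20004 and 20192 per library and the 9 progenitor markers to between 4401 and 5580. The 5 pluripotency markers summed to between 38 and 102 and the 6 mesenchyme and neural crest markers to between 391 and 504. The 8 hem and choroid plexus markers summed to 3552, 1003 and 660 in libraries 1, 2 and 3. All markers of these lists were above 0 in every library, except in the pluripotency list, where 3, 4 and 5 of 5 were. The 35 subunits made up 0.183%, 0.165% and 0.155% of all values in the same libraries. The marker sums are not shares of all values and are not set against these percentages. As sums, the subunits were lowest in library 2, at 4717, 3628 and 4423 from B6 and 4505, 3821 and 4378 from Spret. The progenitor markers (5580, 4401 and 4890) and the mesenchyme and neural crest markers (504, 391 and 403) were also lowest there. The pluripotency markers (72, 102 and 38) were highest there. The hem and choroid plexus markers and the cortical neuron markers (20192, 20022 and 20004) fell from library 1 to library 3. The part of any list in the subunit levels was not tested. In bulk RNA, fewer cells of a type and less RNA per cell cannot be told apart.

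Subunit genes were called toward both parents. Of the 35 subunits, all of which passed the filter of a mean value of at least 10, 8 were higher from Spret, 11 were higher from B6 and 16 were not called (limma, adjusted p below 0.05). Of the 6 assembly factors that passed, Ndufaf2 was higher from B6 and 5 were not called. Toward B6 the differences were largest in Ndufa6 and Ndufc2, at 3.89-fold and 3.28-fold. Toward Spret they were largest in Ndufb8 and Ndufb4, at 2.94-fold and 2.19-fold. Folds are of the higher allele over the lower, and log2 ratios are Spret over B6, both on the log2(value + 1) scale, which understates differences of low genes.

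The 19 called subunits are 54.3% of those tested, where 28.4% of 15456 autosomal genes tested were called, 7.78% toward Spret and 20.7% toward B6. At a mean of at least 50, 16 of 28 subunits (57.1%) were called, 8 toward Spret and 8 toward B6. Of autosomal genes at that level 37.7% were called, 10.7% toward Spret and 27% toward B6. Called and at least 2-fold at that level were 2 subunits toward Spret and 3 toward B6, beside 3.74% of autosomal genes. Of all 35 subunits, 2 toward Spret and 5 toward B6 were called and at least 2-fold, beside 7.35% of autosomal genes in either direction. The 3 values of the alleles did not overlap in 20 subunits (57.1%), 10 in each direction, beside 23.8% of autosomal genes, 6.96% with Spret higher and 16.8% with B6 higher. In 29 of 35 subunits the 3 libraries leaned the same way, beside 54% of autosomal genes. Overlap and sign were not counted at a mean of at least 50. No list was tested as a set.

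Autosomal genes had a median log2 ratio of -0.13, with medians of -0.13, -0.13 and -0.12 in libraries 1, 2 and 3. The median of the subunits was -0.16 and that of the tested assembly factors -0.17. When the ratios of each library were centred on its autosomal median, 10 subunits were called toward Spret and 7 toward B6, so the larger side depends on this scaling. Beside this, 13.3% of autosomal genes were then called toward Spret and 13.5% toward B6. Called and at least 2-fold were then 2 subunits toward Spret and 4 toward B6, beside 6.75% of autosomal genes. Ndufv2 and Ndufb2 gained calls (adjusted p = 0.0265 and 0.013), and Ndufa13, Ndufab1, Ndufs5 and Ndufs4 lost theirs (0.124, 0.0968, 0.0662 and 0.0534). Ndufaf2 kept its call among the assembly factors.

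**Figure D1:**
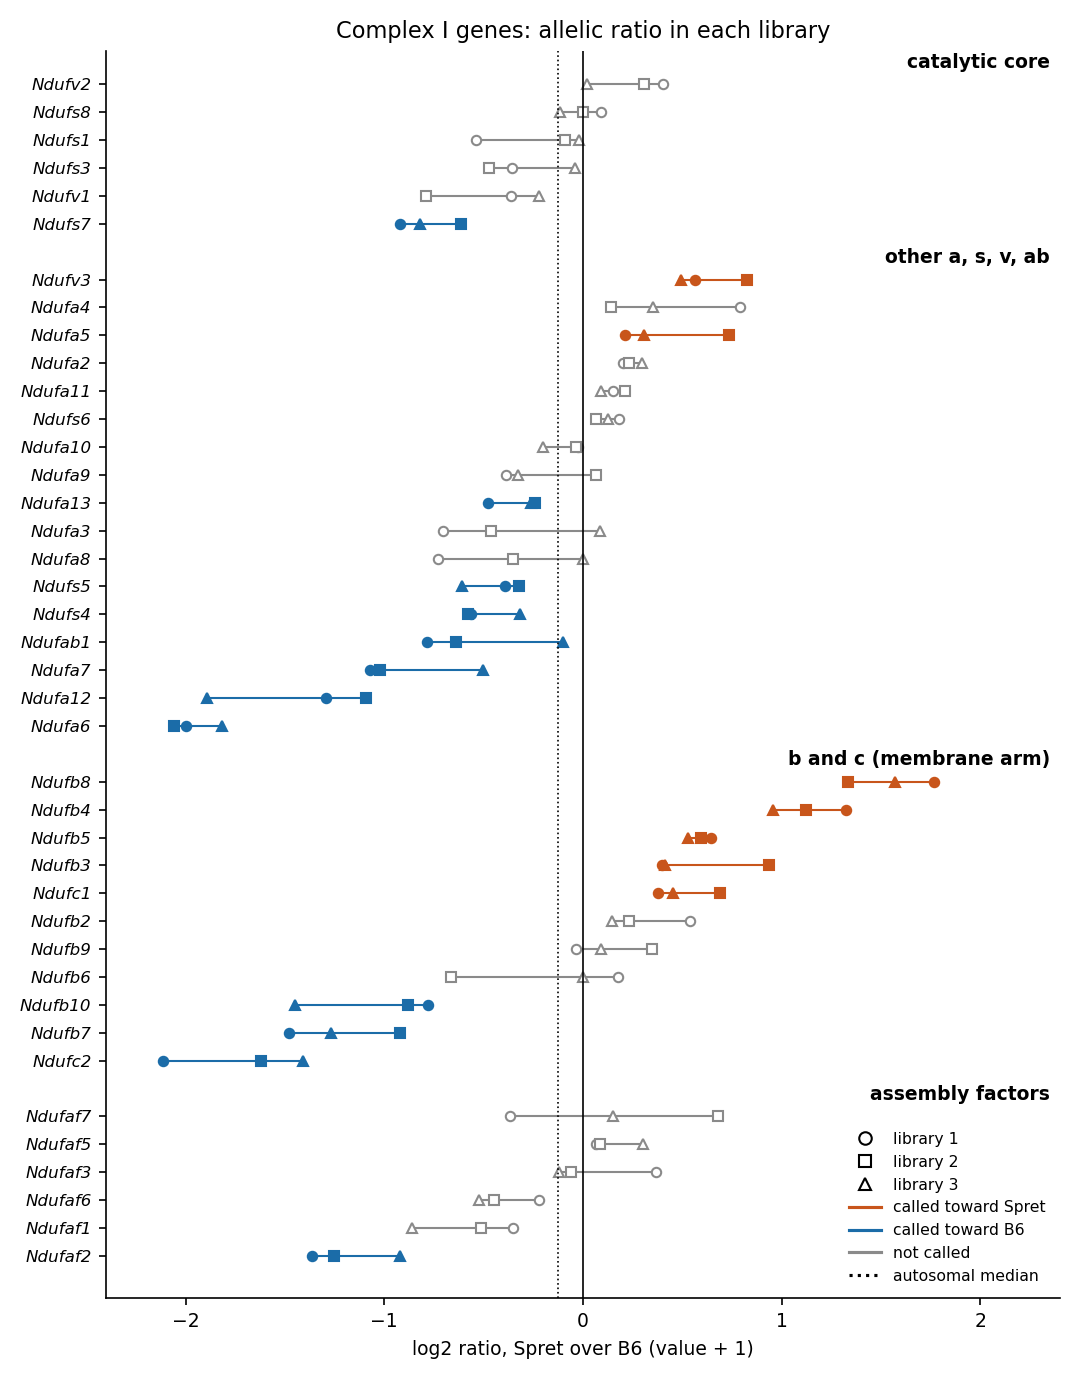
Log2 ratio of Spret over B6 (horizontal axis) for 40 of the 41 complex I genes tested, by class, with a symbol for each of the 3 libraries and a line over their range. Colour marks the limma call, and the dotted line is the autosomal median of -0.13. Ndufb8 and Ndufb4 lie farthest to the Spret side, and Ndufa6 and Ndufc2 farthest to the B6 side.

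Summed over members, the alleles were close to even in the subunits. Spret gave 48.9%, 51.3% and 49.7% of the summed subunit values in libraries 1, 2 and 3, a mean of 49.96% ± 1.24 (SD, n = 3). Without Ndufv3, the subunit of highest summed value, Spret gave 48.9% ± 1.22. In the assembly factors it gave 42.3%, 45.4% and 45.7%, a mean of 44.5% ± 1.89, and without Ndufaf2, the member of highest summed value, 50.3% ± 2.29. Over all autosomal genes the share was 47.7% ± 0.137. These shares are descriptions, since members of a list are not replicates.

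Of the catalytic core, 6 nuclear subunits are described, and none of these differed by 2-fold or more. Ndufs7 was higher from B6, and the other 5 were not called. Over autosomal genes 28.4% were called, 7.78% toward Spret and 20.7% toward B6. With 6 genes described, the calls are not read as a trait of the core. Ndufs7 lies at the ubiquinone site and carries the last iron-sulfur cluster before ubiquinone. It read 52, 48 and 52 from B6 and 27, 31 and 29 from Spret in libraries 1, 2 and 3, with no overlap (log2 ratio -0.79 ± 0.22 SE, limma adjusted p = 0.014).

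The other 5 did not pass the test. Ndufv1, which binds NADH and the flavin, read 89, 70 and 70 from B6 and 69, 40 and 60 from Spret (log2 ratio -0.46, adjusted p = 0.0662). All its B6 values lay above all its Spret values. Ndufv2, its iron-sulfur partner, read 141, 133 and 155 from B6 and 187, 165 and 157 from Spret (0.24, 0.125), with no overlap in the opposite direction. Ndufs1, the large iron-sulfur subunit of the NADH-oxidising end, read 172, 114 and 138 from B6 and 118, 107 and 136 from Spret (-0.22, 0.234). Its alleles overlapped, and B6 was higher in 3 of 3 libraries. Ndufs3, also of the matrix arm, read 90, 96 and 72 from B6 and 70, 69 and 70 from Spret (-0.29, 0.189). Its Spret values all lay below its B6 values, by as little as 2 in library 3. Ndufs8, an iron-sulfur subunit, read 91, 89 and 104 from B6 and 97, 89 and 96 from Spret, with a log2 ratio of -0.01.

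In the membrane arm, genes of the b and c series held the 2 largest Spret differences and the second largest B6 difference. Of 11 genes, 5 were higher from Spret, 3 were higher from B6 and 3 were not called. The called genes are 72.7%, beside 28.4% of autosomal genes, 7.78% toward Spret and 20.7% toward B6. With centred ratios 6 and 3 were called (81.8%, beside 26.8% of autosomal genes). Ndufb8, a membrane-arm subunit widely used as a marker of assembled complex I, read 106, 111 and 114 from B6 and 363, 281 and 341 from Spret. The groups lay far apart in every library (log2 ratio 1.56 ± 0.11 SE, limma adjusted p = 2.57e-08). Ndufb4, another membrane-arm subunit, read 31, 33 and 49 from B6 and 79, 73 and 96 from Spret (1.13 ± 0.18 SE, adjusted p = 0.000284). Its alleles did not overlap either. Ndufb5 read 77, 52 and 76 from B6 and 121, 79 and 110 from Spret (0.59 ± 0.15 SE, 0.00714). Ndufb3 read 128, 80 and 122 from B6 and 169, 154 and 163 from Spret (0.58 ± 0.13 SE, 0.00393). Ndufc1 read 59, 56 and 64 from B6 and 77, 91 and 88 from Spret (0.51 ± 0.16 SE, 0.0286). These smaller membrane-arm differences, of about 1.4 to 1.5 times, also separated all Spret from all B6 values.

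Toward B6, Ndufc2, which sits at the junction of the membrane arm, read 129, 82 and 116 from B6 and 29, 26 and 43 from Spret (log2 ratio -1.72 ± 0.19 SE, limma adjusted p = 6.49e-06). The subunits Ndufc1 and Ndufc2, a pair by name, were thus called in opposite directions. Ndufb7 and Ndufb10 belong to the subunits of the intermembrane-space side that are held by disulfide bonds. Ndufb7 read 144, 105 and 117 from B6 and 51, 55 and 48 from Spret (-1.22 ± 0.16 SE, 3.99e-05). Ndufb10 read 35, 34 and 40 from B6 and 20, 18 and 14 from Spret (-1.04 ± 0.27 SE, 0.00997). Of the same disulfide-bonded kind, Ndufs5 had a log2 ratio of -0.44 (adjusted p = 0.0135) and Ndufa8 one of -0.36 that was not called (0.262). Ndufb2, Ndufb9 and Ndufb6 were not called, with log2 ratios of 0.31, 0.13 and -0.16.

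The sequences before the start sites of Ndufb8 and Ndufc2 are shown because these genes had large differences in opposite directions and no annotated exon in the window. They are the 250 bases before the RefSeq start site, 5′ to 3′ on the strand of the gene, from the B6 reference (GRCm38.p6). Ndufb8 lies on the minus strand (chr19:44555443-44555692) and Ndufc2 on the plus strand (chr7:97399753-97400002). Capitals mark simple repeats, units of 2 to 4 bases repeated over at least 16 bases.
Ndufb8: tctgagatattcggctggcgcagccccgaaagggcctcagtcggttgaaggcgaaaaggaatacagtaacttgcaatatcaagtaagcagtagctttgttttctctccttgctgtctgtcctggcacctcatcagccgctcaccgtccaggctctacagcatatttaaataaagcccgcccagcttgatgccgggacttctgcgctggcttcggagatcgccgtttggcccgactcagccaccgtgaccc
Ndufc2: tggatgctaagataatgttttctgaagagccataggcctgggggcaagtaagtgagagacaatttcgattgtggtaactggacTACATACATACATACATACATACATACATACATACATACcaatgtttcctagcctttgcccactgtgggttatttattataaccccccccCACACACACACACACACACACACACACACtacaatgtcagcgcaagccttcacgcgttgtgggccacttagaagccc
The window of Ndufc2 held a repeat of TACA over 39 bases and a repeat of CA over 29 bases, and that of Ndufb8 held none. Ndufc2 was the single member with such a repeat among the 37 whose promoter is in the RefSeq table, beside 3.17% of all 27025 genes there. The Spret sequences were not used here.

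Letters of binding motifs of regulators of respiratory genes were searched in the same windows on both strands. A form of the NRF1 motif, GCGCA and GCGC with any single base between them, stood in 6 of 37 members (16.2%) and in 4.23% of all genes. CCGGAAG, the ETS motif that GABP binds, stood in 5 of 37 (13.5%) and in 7.83% of all genes. AAGATGG, a form of the YY1 motif, stood in 0 of 37 and in 5.18%. The NRF1 letters stood before Ndufb4 and Ndufa5, called toward Spret, before Ndufs5, called toward B6, and before the uncalled Ndufa11, Ndufa8 and Ndufs6. A match is a description of letters in the B6 reference. Windows were searched whole, also where they hold annotated exon, as that of Ndufb4 does. Members with no promoter entry included Ndufs1, Ndufaf6, Ndufb9 and Ndufa2.

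**Figure D2:**
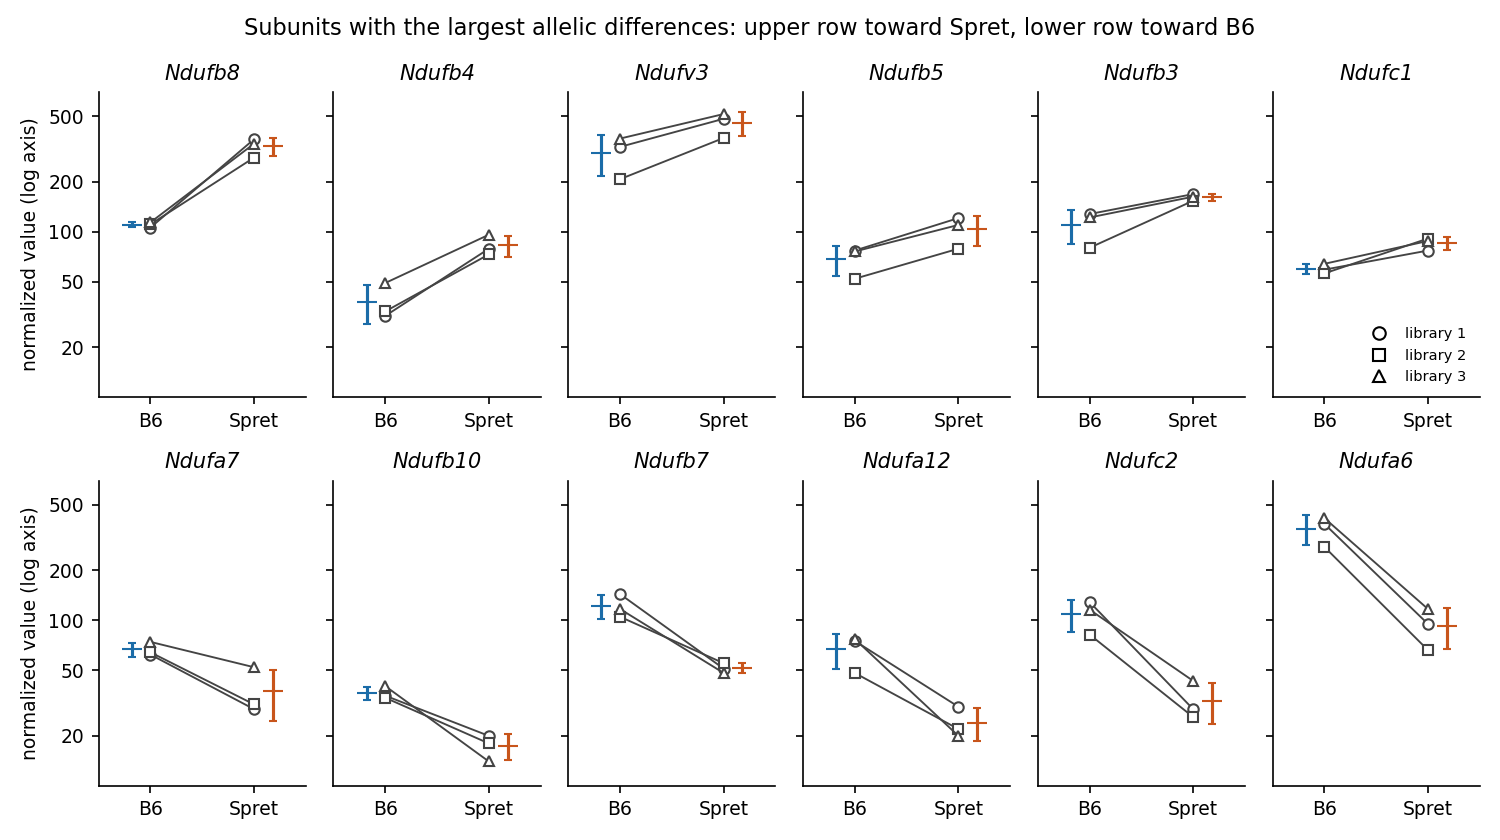
Normalized values of the B6 and Spret alleles (vertical log axis) for the 6 called subunits with the largest differences toward Spret (upper row) and toward B6 (lower row). Lines join the alleles of a library, and bars beside them give the mean ± SD over the 3 libraries. All 3 Spret values lie on the same side of all 3 B6 values in each of the 12 genes.

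The remaining supernumerary subunits of the a, s, v and ab series held the largest difference of the complex. Of 17 genes, 2 were higher from Spret, 7 were higher from B6 and 8 were not called (52.9% called). Over autosomal genes 28.4% were called, 7.78% toward Spret and 20.7% toward B6. With centred ratios 2 and 3 were called (29.4%), near the 26.8% of autosomal genes. Ndufa6, a small protein of the LYR family on the matrix arm, read 383, 278 and 415 from B6 and 95, 66 and 117 from Spret. Every B6 value was more than 2 times every Spret value (log2 ratio -1.96 ± 0.10 SE, limma adjusted p = 9.87e-10). Ndufab1 is the mitochondrial acyl carrier protein, which docks on the LYR subunits Ndufa6 and Ndufb9. It read 116, 80 and 103 from B6 and 67, 51 and 96 from Spret (-0.51 ± 0.17 SE, 0.0319). Ndufb9 read 320, 226 and 228 from B6 and 312, 288 and 243 from Spret and was not called (0.13, 0.304). Of these 3 interacting proteins, Ndufa6 and Ndufab1 were thus called toward B6 by unequal amounts.

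Ndufa12, a late-added subunit of the matrix arm, read 75, 48 and 77 from B6 and 30, 22 and 20 from Spret (log2 ratio -1.43 ± 0.23 SE, limma adjusted p = 0.000273). Ndufa7, also of the matrix arm, read 62, 64 and 74 from B6 and 29, 31 and 52 from Spret (-0.86 ± 0.20 SE, 0.00487). The Spret value of Ndufa7 in library 3 was the nearest to the B6 values. Smaller calls toward B6 were Ndufs4, whose loss in mice models Leigh syndrome, at -0.49, and Ndufa13, also known as GRIM-19, at -0.33. Toward Spret, Ndufv3 of the NADH-oxidising end read 326, 208 and 366 from B6 and 482, 369 and 515 from Spret (0.63 ± 0.08 SE, 3.91e-05). Ndufa5 of the matrix arm was higher from Spret at 0.42 ± 0.11 SE (0.0116). The uncalled genes Ndufa2, Ndufa3, Ndufa4, Ndufa8, Ndufa9, Ndufa10, Ndufa11 and Ndufs6 ranged from -0.36 to 0.43. Of these, Ndufa4 is now counted with complex IV.

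Among assembly factors, Ndufaf2 was called. Ndufaf2 is a paralog of Ndufa12 that holds its place on the growing complex until Ndufa12 is added. It read 148, 130 and 120 from B6 and 57, 54 and 63 from Spret (log2 ratio -1.18 ± 0.15 SE, limma adjusted p = 2.79e-05). Both paralogs were thus higher from B6 with no overlap of the alleles. No assembly factor was called toward Spret by limma, and none had an unadjusted p below 0.05 in that direction. With 6 tested, the 1 call is 16.7%, beside 28.4% of autosomal genes, 7.78% toward Spret and 20.7% toward B6.

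The alleles of the other assembly factors overlapped. Ndufaf1, of the module that builds the membrane arm, read 45, 29 and 28 from B6 and 35, 20 and 15 from Spret (log2 ratio -0.58, adjusted p = 0.109), with B6 higher in 3 of 3 libraries. Ndufaf6 read 20, 14 and 22 from B6 and 17, 10 and 15 from Spret (-0.40, 0.365), also with B6 higher in each. Ndufaf3, an early factor of the matrix arm, read 44, 48 and 73 from B6 and 57, 46 and 67 from Spret (0.06, 0.84). Ndufaf5, which hydroxylates Ndufs7, read 43, 31 and 46 from B6 and 45, 33 and 57 from Spret (0.15, 0.628). Its target Ndufs7 was called toward B6. Ndufaf7, a methyltransferase, read 97, 57 and 89 from B6 and 75, 92 and 99 from Spret (0.16, 0.565), with library 1 opposite to the others. Ndufaf8, a partner of Ndufaf5, fell below the filter at 7, 9 and 4 from B6 and 10, 9 and 6 from Spret.

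Of 15 further assembly genes named otherwise, 1 was called toward Spret and 5 toward B6, or 2 and 3 when ratios were centred. Over autosomal genes the shares were 7.78% and 20.7%, or 13.3% and 13.5% when centred, so that the larger count toward B6 is also that of all genes. Foxred1, a flavoprotein needed for assembly, was higher from Spret (log2 ratio 0.47 ± 0.16 SE, limma adjusted p = 0.0412). Its call ended without library 1 (adjusted p = 0.28), without library 3 (0.255) and where both alleles had to have a mean of at least 5 (0.0514). Lyrm2, a LYR protein that takes part in building the NADH-oxidising end, was higher from B6 at -0.64 ± 0.16 SE (0.00833), a call that ended without library 3 (0.0587). The other calls toward B6 were Sfxn4, Bcs1l (which acts on complex III), Tmem186 and Tmem126b at -1.19, -0.98, -0.85 and -0.55. With centred ratios those of Bcs1l and Tmem126b ended (adjusted p = 0.0609 and 0.106). Without library 1 there were 3 calls in this list, and without library 3 there were 2. Tmem126b and Tmem186 work with Ndufaf1, as do Ecsit and Acad9, which were not called (0.01 and -0.25).

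**Figure D3:**
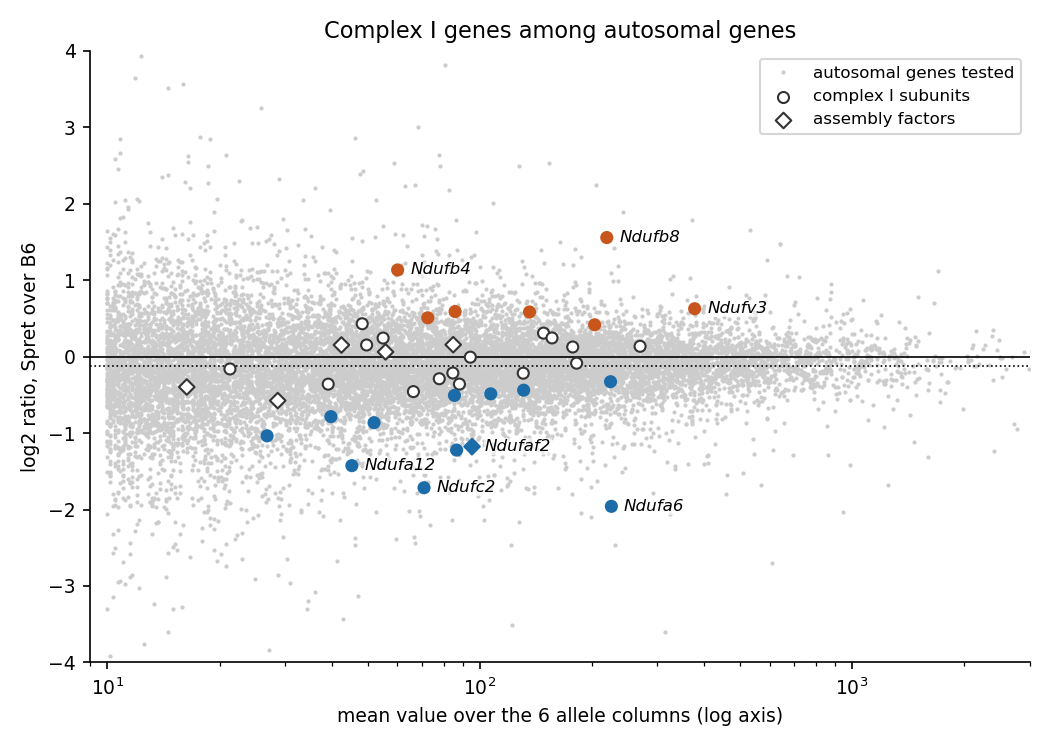
Log2 ratio of Spret over B6 (vertical axis) against the mean over the 6 allele columns (horizontal log axis). Grey points are autosomal genes tested, of which 68 lie outside the plotted range, circles are complex I subunits and diamonds assembly factors, 40 of 41 tested in all. Filled symbols passed the test, orange toward Spret and blue toward B6. Ndufa6 and Ndufb8 stand near the edge of the grey points at their level.

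Some complex I genes start head to head with a gene on the other strand. In 9 pairs with start sites within 1000 bases and exons apart, both genes were tested, and the ratios had the same sign in 6 and opposite signs in 3. Both genes were called in the pair of Ndufv3 and Wdr4, a subunit of a tRNA methyltransferase, whose starts lie 135 bases apart, and they were called in opposite directions. Wdr4 read 76, 70 and 89 from B6 and 51, 42 and 50 from Spret (log2 ratio -0.70 ± 0.17 SE, limma adjusted p = 0.00676). The ratio of Ndufv3 exceeded that of Wdr4 by 1.13, 1.55 and 1.31 in libraries 1, 2 and 3. The call of Wdr4 ended without library 3 (adjusted p = 0.0746).

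Ndufa7 and Rps28, a ribosomal protein gene that starts 10 bases away, also differed. Rps28 read 235, 189 and 257 from B6 and 242, 221 and 267 from Spret and was not called (log2 ratio 0.11, limma adjusted p = 0.406). The ratio of Ndufa7 was below that of Rps28 in every library, with differences of -1.11, -1.25 and -0.56. Ndufaf2 and Ercc8, a DNA repair gene 108 bases away, differed by -1.14, -0.59 and -0.94. Ercc8 was not called (-0.29, 0.28). Pairs closer in their ratio over the libraries were Ndufa2 with Ik (0.24 and 0.24) and Ndufaf7 with Cebpz (0.16 and 0.02). By library, Ndufa2 differed from Ik by -0.10, 0.02 and 0.08. Ndufaf7 differed from Cebpz by -0.43, 0.66 and 0.16, so that pair was not alike in each library. Differences between neighbours were not tested.

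The stretches between the start sites of Ndufv3 and Ndufaf2 and the nearest exon before them are shown for the contrast within these pairs. They are 134 and 105 bases of the B6 reference (GRCm38.p6), 5′ to 3′ on the strand of the complex I gene, at chr17:31519981-31520114 (plus strand) and chr13:108158626-108158730 (minus strand). Neither held a simple repeat or letters of the motifs searched above.
Ndufv3: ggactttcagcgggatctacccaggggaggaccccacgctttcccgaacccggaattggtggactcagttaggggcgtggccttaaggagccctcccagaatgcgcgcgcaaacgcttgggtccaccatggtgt
Ndufaf2: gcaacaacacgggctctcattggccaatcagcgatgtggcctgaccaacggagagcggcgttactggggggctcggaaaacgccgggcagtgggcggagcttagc

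**Figure D4:**
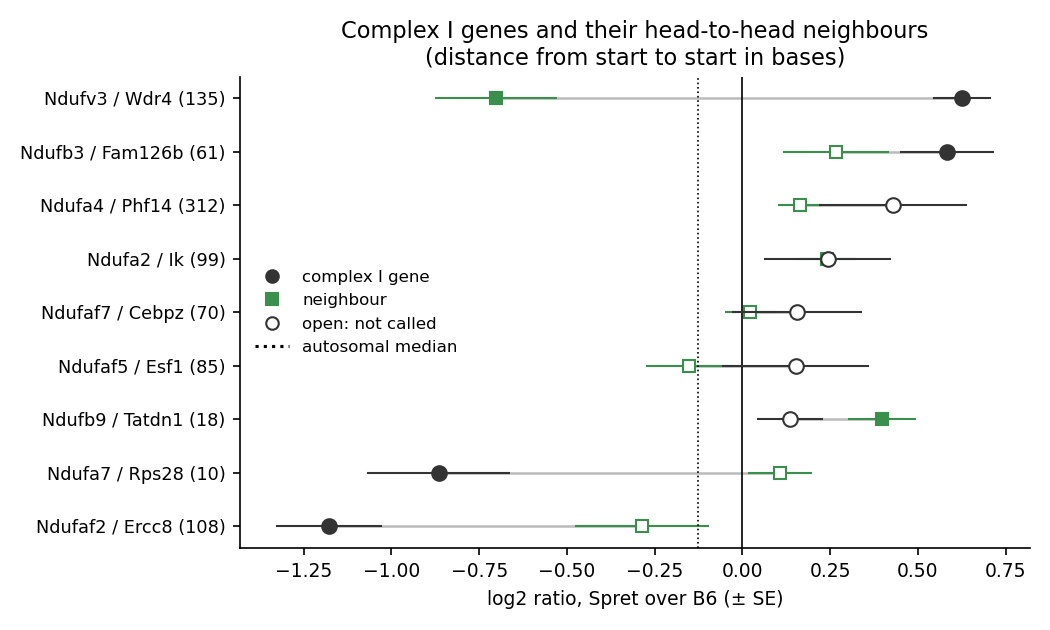
Log2 ratio of Spret over B6 ± SE (horizontal axis) of 9 complex I genes (circles) and their head-to-head neighbours (squares), with the distance from start to start in bases. Filled symbols passed the test, and the dotted line is the autosomal median. Ndufv3 and Wdr4 lie on opposite sides of 0, and Ndufa7 lies below 0 where Rps28 does not.

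The sources used here do not give how reads of overlapping or copied genes were counted, or whether strand was used. Exons of 17 members overlap those of another gene. The overlap was 65.6% of exonic bases in Ndufaf2, with the opposite-strand B230220B15Rik, whose 6 values summed to 14. It was 39.0% in Ndufb6, 30.0% in Ndufa13, 19.5% in Ndufb9 and 12.3% in Ndufb5, and 4.26% in Ndufb8, with the same-strand Gm20538. Copies alike at 95% or more over at least 250 bases were annotated for Ndufa12 (Gm15920, 402 bases at 99.5%), Ndufb4 (Ndufb4c, 390 bases at 100%), Ndufs5, Ndufab1, Ndufs3, Ndufs6, Ndufa11 and Ndufb3. Values of these genes are uncertain to that extent. Ndufa6, Ndufc2 and Ndufb7 had neither.

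The calls of Ndufa6, Ndufc2, Ndufb8, Ndufb4 and Ndufaf2 held in each of the 12 alternatives run, and the other 15 of 20 ended in at least 1. Leaving out library 1 ended those of Ndufb5, Ndufc1, Ndufs5, Ndufab1, Ndufs7, Ndufa13, Ndufs4 and Ndufa7 (limma adjusted p between 0.0698 and 0.258). Those ended by leaving out library 2 included Ndufc1, Ndufa5, Ndufab1 and Ndufs4 (0.052 to 0.126), and those ended by leaving out library 3 included Ndufc1, Ndufs5, Ndufs7, Ndufa13 and Ndufb10 (0.0614 to 0.116). The counts toward Spret and B6 were then 6 and 5, 5 and 9, and 6 and 7 subunits.

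Other nuclear genes of mitochondria were also called in both directions. In complexes II to IV and the ATP synthase, 8 of 39 tested genes were called toward Spret and 8 toward B6 (41.0% called). The median log2 ratio of the 39 was -0.02. The counts toward Spret and B6 were 2 and 0 of 4 in complex II, 1 and 4 of 9 in complex III, 3 and 2 of 10 in complex IV and 2 and 2 of 16 in the ATP synthase. In complexes II to IV the called genes of highest summed value in each direction were Sdha (0.30), Uqcrb (0.96) and Cox7c (0.31) toward Spret and Uqcrc2 (-0.50) and Cox7a2l (-1.78) toward B6. In the ATP synthase they were Atp5b (0.70) and Atp5a1 (-0.36), the beta and alpha subunits of its catalytic head. Cox7a2l, which joins complexes III and IV, read 453 ± 60.3 from B6 and 131 ± 13.9 from Spret (SD, n = 3). Of 78 mitochondrial ribosomal protein genes, 13 were called toward Spret and 12 toward B6 (32.1%, near the 28.4% of autosomal genes), with Mrpl39 (0.47) and Mrps17 (-0.95) of highest summed value. Without library 1, 10 genes of the other complexes and 9 of the mitochondrial ribosome were called, and without library 3, 13 of the latter. Whether complex I differs from these groups was not tested.

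Of 12 regulators of respiratory genes, the mitochondrial transcription factor Tfb2m was higher from Spret (log2 ratio 0.52 ± 0.17 SE, limma adjusted p = 0.0367) and Yy1 was higher from B6 (-0.34 ± 0.10 SE, 0.017). The called share of 16.7% was below the 28.4% of autosomal genes, as was 8.33% beside 26.8% with centred ratios. Both calls ended when any library was left out, with adjusted p from 0.0629 to 0.159, and that of Yy1 with centred ratios (0.119). Nrf1, Gabpa, Ppargc1a and Esrra, which activate nuclear genes of the chain, were not called, with ratios of -0.33, 0.06, -0.56 and 0.14.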

How the data were processed

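RNA of 3 organoid libraries was sequenced after ribosomal RNA depletion, per the labels' protocols. The authors deposited whole numbers, treated here as a score, which the name of their table gives as normalized allele-specific reads. The submitters' processing notes name mm10 as the build. Aligner, allele assignment, counter, use of strand and normalization are not given in the sources used here. Of the whole numbers from 1 to 200, 27 and 43 were held by no gene in libraries 1 and 2 and 0 in library 3. Exact depth is unknown, and count tests were not used. No columns were identical.

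Genes with a mean of at least 10 over 6 columns were tested, 15985 in all, with limma 3.58.1 in R 4.3.3 on log2(value + 1), with library and allele as terms and a trend. The alleles of a library are paired because they come from 1 RNA sample. Variances were moderated over genes of similar level, with 12.31 prior and 2 residual degrees of freedom. A p-value thus does not rest on the spread of its own gene alone. Two-sided p-values were adjusted by Benjamini-Hochberg over all tested genes, threshold 0.05. The fit was tested on simulated data. Background shares are over 15456 autosomal genes.

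Positions came from GENCODE M21 (GRCm38, the assembly of mm10), or RefSeq where absent there, for all but 741 genes. Copies were searched in its transcripts with BLAST 2.17.0. Members and lists were chosen with earlier results of these data known, and the motifs, repeats and neighbours searched with these values in view. Values per library are given for 6 of the 7 core subunits, since 1 is not reported here by name, all assembly factors and the 6 called subunits with the largest ratios in each direction, and in other lists the called genes of highest summed value are named. Others were added after their values were seen. The alternatives were pseudocounts of 0.5 and 5, other filters, centring, autosomal genes alone, no trend, no library term and each library left out.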

Additional observations from a re-analysis of the deposited data

How the results depend on the processing

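Of 20 called complex I genes, 20 kept their call with pseudocounts of 0.5 and 5, with autosomal genes alone and with a mean of at least 5 required of each allele, and 17 of 17 at a mean of at least 50. No called gene changed sign in any alternative. The subunits called toward Spret and B6 were 2 and 2 with no filter on low values, which tests 44260 genes, 4 and 7 with no trend, and 10 and 7 with centred ratios. Without the pairing of alleles within a library (no replicate block) they were 2 and 5. Leaving out a library gave 5 to 6 toward Spret and 5 to 9 toward B6. The cause of these changes was not tested.

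The median log2 ratio of the subunits moved to -0.12 with a pseudocount of 5, -0.047 at a mean of at least 50 and -0.039 with centred ratios, and ranged from -0.16 to -0.11 with a library left out. That of the assembly factors moved to -0.13 with a pseudocount of 5, to -0.045 with centred ratios, and to 0.061 with no filter, at a mean of at least 50 and with a mean of at least 5 required of each allele. It ranged from -0.29 to -0.13 with a library left out. The Spret share of the assembly factors was 50.3% without Ndufaf2. Genes called in the other complexes, the mitochondrial ribosome, the further assembly genes and the regulators were 5, 3, 1 and 0 with no filter, 5, 11, 1 and 0 with no trend, and 6, 7, 2 and 0 with no replicate block. With centred ratios 1 regulator was called. With a library left out, 10 to 14, 9 to 21, 2 to 6 and 0 to 0 were called. Exact depth is unknown, and 1 member fell below the filter.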
